A study of Saccharomyces cerevisiae with 4 samples.

Results

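The genes described here are the paralog pairs of the large ribosomal subunit of *Saccharomyces cerevisiae*, from *RPL1A* (*YPL220W*) and *RPL1B* (*YGL135W*) to *RPL37A* (*YLR185W*) and *RPL37B* (*YDR500C*). They were taken by name, by a rule that uses no measured value, though earlier results of these data were known. Each protein of this subunit up to Rpl37 that is encoded by a copy A and a copy B gave a pair. This makes 29 pairs, or 58 of the 4777 genes in the deposited matrix, and all 58 had UMIs in at least 1 library. The 4 further pairs of the subunit (*RPL40* to *RPL43*), its single-copy genes and the small subunit genes served only for comparison.

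The study grew haploid yeast of strain BY4741 (MATa, with the alleles *his3Δ1*, *leu2Δ0*, *met15Δ0* and *ura3Δ0*) for 18 h in CSM minimal medium with 2% glucose and read the mRNA of single cells by yeastDrop-Seq, a droplet method adapted to the yeast cell wall. It asked how mycophenolic acid (MPA), an inhibitor of the enzyme that leads to guanine nucleotides, and guanine, which yeast can salvage into the same nucleotides, change the transcriptome. MPA cells were given 10 µM MPA and DMSO, Guanine cells 10 µM guanine, MPA + Guanine cells both compounds and DMSO, and DMSO cells 10 µM of the solvent alone. As the Methods state it the Guanine medium held no DMSO, so guanine and the lack of DMSO cannot be told apart in that comparison. Each condition is 1 library, so library and condition cannot be told apart, no test between conditions was made, and every interval is a 95% interval that covers counting error only.

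The large ribosomal subunit joins amino acids into protein and holds the tunnel through which the new chain leaves. Most of its proteins are encoded in yeast by a copy A and a copy B that remain from an ancient duplication of the whole genome, and either copy can supply the same place in the ribosome. Transcription of these genes is driven by Rap1 with Fhl1, Ifh1 and Sfp1 and follows growth and nutrient signals, and together they make up a large part of the mRNA of a growing yeast cell.

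The libraries held 85 MPA, 258 Guanine, 268 MPA + Guanine and 233 DMSO cells, with 102788 to 311199 UMIs (unique molecular identifiers, each standing for 1 captured mRNA molecule) and a median of 749.5 to 1250 UMIs per cell. No cell barcode occurred in more than 1 library. In none of the 4 libraries did any gene with UMIs have fewer than 2 in its highest cell, as a filter on single UMIs would leave it, so a gene listed at 0 may still have had some, and no fold or limit is given for it. *LEU2*, *URA3* and *MET17* (the gene altered in *met15Δ0*) are not among the listed genes and *HIS3* had 28 to 205 UMIs per library. Of the MATa genes, *MFA1* and *STE2* had UMIs in all 4 libraries, *BAR1* was listed at 0 in Guanine and *MFA2* had UMIs in DMSO only, while *STE3* and the alpha factor genes of the other mating type are not listed. Cells in which 1 gene took over 10% of the UMIs numbered 4 for MPA, 1 for Guanine, 16 for MPA + Guanine and 7 for DMSO, and 15 of the 16 belonged to the smallest MPA + Guanine subcluster.

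The copies of a pair resemble each other so closely that sequence bears on every comparison between them. In the R64 reference, 8 pairs encode identical proteins (*RPL1*, *RPL2*, *RPL12*, *RPL19*, *RPL20*, *RPL23* and *RPL35* among them), 16 differ at 1 to 5 residues and 5 at more. The lowest protein identities were 84.4% for *RPL22*, 89.9% for *RPL16* and 93.2% for *RPL37*. Sequence can tell the copies apart only where their DNA differs, which was measured as the share of 50-base windows of the coding sequence that occur once in the genome. That share was 19.0% for each *RPL1* copy, 19.4% for *RPL35*, 27.3% for *RPL4*, 39.1% for *RPL11* and 43.1% for *RPL7*, all under 50%, while 28 of the 58 members were above 90%. The longest run of bases common to both copies was 422 in *RPL4*, 326 in *RPL11*, 315 in *RPL1*, 302 in *RPL35* and 245 in *RPL7*. The method captures mRNA by its poly(A) tail, and within the last 300 coding bases none of the windows of *RPL1* (0%) and 3.98% of those of *RPL35* occurred once. The last 90 coding bases, stop codon included, show the range between the nearest and the most distant pairs and are given 5′ to 3′ on the coding strand, with capitals where the copies of the pair differ in an alignment.
RPL1A, chrXVI:136354-136443, plus strand: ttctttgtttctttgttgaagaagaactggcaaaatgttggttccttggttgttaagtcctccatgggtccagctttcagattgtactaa
RPL1B, chrVII:255205-255294, plus strand: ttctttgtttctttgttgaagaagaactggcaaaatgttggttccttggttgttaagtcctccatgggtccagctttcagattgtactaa
RPL22A, chrXII:263859-263948, plus strand: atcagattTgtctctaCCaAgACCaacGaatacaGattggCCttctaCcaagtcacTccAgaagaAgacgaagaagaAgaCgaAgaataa
RPL22B, chrVI:64243-64332, minus strand: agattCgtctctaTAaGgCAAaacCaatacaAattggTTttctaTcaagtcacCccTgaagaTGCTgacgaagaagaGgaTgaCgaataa
The ends of *RPL1A* and *RPL1B* are the same letter for letter, so that a read lying wholly within them names no copy. The ends of the *RPL22* copies differ at 18 bases of *RPL22A* and 21 of *RPL22B*. How reads that match both copies were assigned is not given in the sources used here, so values of single copies of *RPL1*, *RPL35*, *RPL4*, *RPL11* and *RPL7* are uncertain.

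The share of the 58 genes was lowest in the MPA + Guanine library, at 6.39% of all UMIs, against 11.7% in the DMSO library. In numbers this was 17890 UMIs (95% interval of the share 6.30 to 6.48%) for MPA + Guanine and 36380 UMIs (11.6 to 11.8%) for DMSO. MPA cells gave 11996 UMIs, or 11.7% (11.5 to 11.9%), a share whose interval overlaps that of DMSO. Guanine cells gave 27734 UMIs, or 12.8% (12.7 to 12.9%), above DMSO by more than counting error. Per cell, the median share was 11.7% in MPA (SD over cells 2.38), 12.9% in Guanine (SD 3.08), 6.18% in MPA + Guanine (SD 3.15) and 11.9% in DMSO (SD 3.03). The mean number of member UMIs in a cell was 141 for MPA, 107 for Guanine, 66.8 for MPA + Guanine and 156 for DMSO.

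The authors had divided each library into subclusters of like cells, named here by condition and number (MG for MPA + Guanine), and the shares differed between them. The MPA + Guanine cells split into MG.1 with 166 cells and a share of 5.49% (5.39 to 5.59%), MG.2 with 77 cells and 9.25% (9.03 to 9.46%), and MG.3 with 25 cells and 4.96% (4.63 to 5.30%). All 3 lay below the larger DMSO subcluster, DMSO.1, at 12.3% in 177 cells, and MG.2 was close to the smaller one, DMSO.2, at 9.33% (9.11 to 9.56%) in 56 cells. Guanine.1 was at 13.2% in 135 cells and Guanine.2 at 12.5% in 123 cells, and the 85 MPA cells form a single subcluster. These groups were found from the same counts, so their values are a description. In MG.3 the median share of a cell was 2.75%, with a range of 0.65 to 12.5%. Of its 25 cells, 15 had 1 gene with over 10% of their UMIs. Median UMIs per cell were 1097.5 in MG.1, 807 in MG.2 and 666 in MG.3, against 1304 in DMSO.1 and 1026.5 in DMSO.2, and the part of depth in the shares was not tested.

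**Figure D1:**
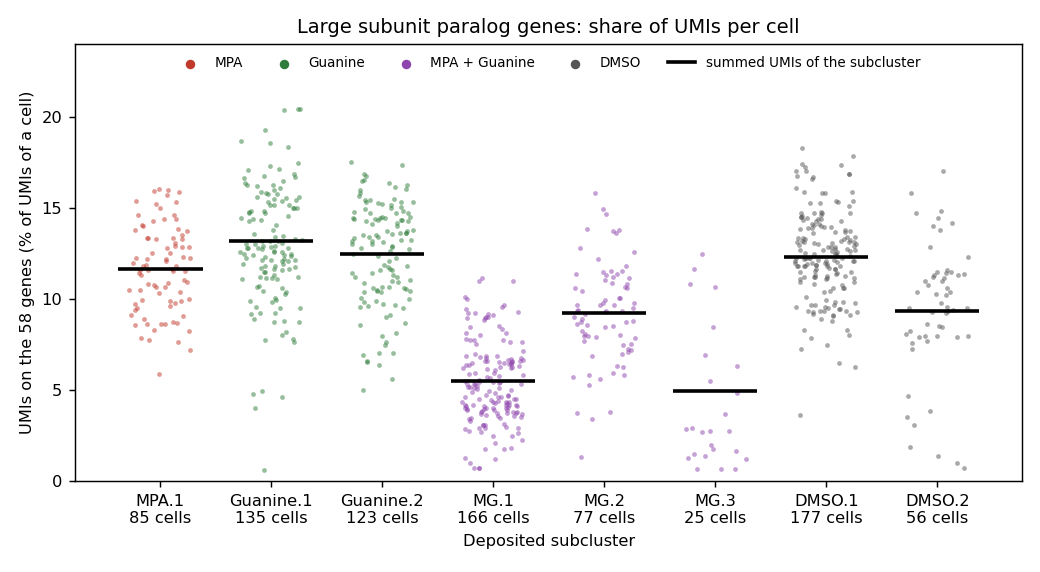
Each point is 1 cell of the 844, placed by its deposited subcluster on the x axis and by the percent of its UMIs on the 58 large subunit paralog genes on the y axis, and black bars give the share of the summed UMIs. The bars of MG.1 and MG.3 are at 5.49% and 4.96%, that of MG.2 at 9.25%, and those of MPA and Guanine cells between 11.7% and 13.2%, against 12.3% for DMSO.1 and 9.33% for DMSO.2.

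With MPA and guanine together, nearly every member was lower than in DMSO, and by a like amount. CPM (UMIs of a gene per 1000000 UMIs of the library) were set against DMSO for members with at least 50 UMIs over the 4 libraries, which leaves out *RPL22A* and *RPL33A* with 9 UMIs each, and a member listed at 0 on either side has no ratio. Of the 55 members with a ratio, 54 were below 0 on the log2 scale and 52 were at or below −0.5, a size reached downward by 13.0% of all 2351 genes compared. Upward, 1 member reached 0.5, against 32.8% of those genes. The median was −0.90, with 16 members at or below −1, against a median of 0.26 over all genes compared. Summed over the 58 genes the log2 ratio was −0.87 (−0.90 to −0.84). In 25 of the 26 pairs with both ratios, copies A and B were both below 0, and in 23 both were at or below −0.5.

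The lower values were spread over all regions of the subunit. Of the proteins that bridge to the small subunit (*RPL2*, *RPL19*, *RPL23* and *RPL24*), the 8 members lay between −0.93 and −0.73 on the log2 scale. Of those that line the exit tunnel or surround its opening (*RPL4*, *RPL17*, *RPL26*, *RPL31* and *RPL35*), the 10 members lay between −1.32 and −0.59. The stalks, the factor-binding side and the central protuberance (*RPL1*, *RPL9*, *RPL11* and *RPL12*) ranged from −1.42 to −0.38, with 7 of 8 at or below −0.5. Among the 16 other pairs, 27 of the 29 members with a ratio were at or below −0.5. These groupings were made with the values known, and counts of this kind over them are a description.

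The lowest ratio belonged to *RPL12A* (*YEL054C*), which encodes a protein at the base of the stalk that recruits translation factors. It had 135 UMIs or 482 CPM in MPA + Guanine, against 402 UMIs or 1292 CPM in DMSO, a log2 ratio of −1.42 (−1.71 to −1.14). *RPL8A* (*YHL033C*), for a protein of the subunit's solvent side, had 65 UMIs or 232 CPM in MPA + Guanine and 186 UMIs or 598 CPM in DMSO, a log2 ratio of −1.36 (−1.79 to −0.95). *RPL31B* (*YLR406C*), for a protein beside the tunnel opening, had 250 UMIs or 893 CPM in MPA + Guanine and 693 UMIs or 2227 CPM in DMSO, a log2 ratio of −1.32 (−1.53 to −1.11). At the other end stood *RPL15B* (*YMR121C*), the only member above 0 here, with 89 UMIs or 318 CPM in MPA + Guanine and 68 UMIs or 219 CPM in DMSO, a log2 ratio of 0.54 (0.07 to 1.02). Its 89 UMIs came from 64 of 268 cells with at most 4 in a cell, and its ratio was 0.36 with TMM scaling of the libraries. *RPL36B* had 18 UMIs in MPA + Guanine and 22 in DMSO, a log2 ratio of −0.14 (−1.12 to 0.83) that counting error leaves on either side of 0. *RPL1A*, a copy that shares most of its sequence with *RPL1B* and encodes the protein of the stalk next to the exit site for tRNA, had a log2 ratio of −0.38 (−0.63 to −0.13). *RPL7B* was listed at 0 in MPA + Guanine and had 34 UMIs in DMSO.

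The other cytosolic ribosomal protein genes were lower in MPA + Guanine as well. The median log2 ratio was −0.94 over 47 genes of the small subunit pairs, −0.81 over 7 genes of *RPL40* to *RPL43*, −0.80 over 8 single-copy large subunit genes and −0.64 over 8 single-copy small subunit genes. All 136 ribosomal protein genes together took 18.9% of the UMIs in MPA + Guanine, against 33.2% in DMSO. The number of member UMIs per UMI of the small subunit pairs was 1.11 (1.09 to 1.14) in MPA + Guanine and 1.12 (1.10 to 1.13) in DMSO.

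Set against DMSO.1 in place of all DMSO cells, a comparison added after the data were seen, the members' median was −1.25 in MG.1, −0.43 in MG.2 and −1.42 in MG.3. Over all genes compared the median was 0.42 in MG.1, −0.0037 in MG.2 and −0.32 in MG.3. Between MG.2 and MG.1 the median log2 ratio was 0.74, with 49 of 55 members above 0, against −0.28 over all genes. MG.3 set against MG.1 gave a median of −0.16 with 41 of 55 members below 0, against −0.60 over all genes, so the members were lower by less than genes in general. DMSO.2 against DMSO.1 gave −0.44, with 52 of 56 below 0 and 0.05 over all genes. Guanine.2 against Guanine.1 gave −0.07, with 40 of 56 below 0 and 0.09 over all genes.

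In MPA the summed members were at the level of DMSO, with a log2 ratio of 0.00 (−0.03 to 0.03). Of 55 members with a ratio, 48 lay between −0.5 and 0.5. At or below −0.5 were 5 (9.1%), against 12.6% of the 1866 genes compared, and at or above 0.5 were 2 (3.6%), against 28.7%. With TMM scaling 12 were down and 1 up. Against the other 3 libraries pooled, which include MPA + Guanine with its low member share, 8 were up. The share of all genes was not counted under these settings. The members' median was −0.08, with 36 below 0, and that of all genes compared was 0.18. The MPA median is the one whose sign turned, to 0.17 when the other 3 libraries pooled took the place of DMSO. *RPL12B* (*YDR418W*), the second gene for the stalk-base protein, had 55 UMIs or 535 CPM in MPA and 341 UMIs or 1096 CPM in DMSO, a log2 ratio of −1.03 (−1.47 to −0.62). *RPL22B* (*YFL034C-A*), for a protein that yeast can live without, had 19 UMIs in MPA and 103 in DMSO, a log2 ratio of −0.84 (−1.63 to −0.12). *RPL35B* (*YDL136W*), for a protein at the tunnel opening, had 78 UMIs in MPA and 412 in DMSO, a log2 ratio of −0.80 (−1.17 to −0.45). It shares most of its sequence with *RPL35A*, so this value is uncertain beyond its interval.

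The highest members in MPA were *RPL8A*, *RPL7B* and *RPL23A*. *RPL8A* had 98 UMIs or 953 CPM in MPA and 186 UMIs or 598 CPM in DMSO, a log2 ratio of 0.67 (0.31 to 1.03). *RPL7B* had 17 UMIs in MPA and 34 in DMSO, a log2 ratio of 0.60 with an interval that includes 0 (−0.33 to 1.48). *RPL23A* (*YBL087C*), for a protein on the face that meets the small subunit, had 2267 CPM in MPA and 1661 CPM in DMSO, a log2 ratio of 0.45 (0.22 to 0.67).

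The members were higher in MPA relative to the small subunit pairs. Per UMI of the 24 small subunit pairs there were 1.33 member UMIs (1.29 to 1.37) in MPA, against 1.12 (1.10 to 1.13) in DMSO, with 1.10 in Guanine and 1.11 in MPA + Guanine. The median log2 ratio over DMSO was −0.28 for 46 genes of the small subunit pairs, −0.53 for 7 genes of *RPL40* to *RPL43*, −0.23 for 8 single-copy large subunit genes and 0.15 for 8 single-copy small subunit genes, the one class above the members.

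In Guanine the summed members were higher than in DMSO, with a log2 ratio of 0.13 (0.11 to 0.15). Of 56 members with a ratio, 5 were at or above 0.5, as were 23.0% of the 2115 genes compared, and 1 was at or below −0.5, as were 19.5%. The median was 0.13 with 37 above 0, and that of all genes was 0.05. Against DMSO.1 the members' median was 0.057, below that of all genes at 0.074. At or above 0.5 were 27 members against the other 3 libraries pooled, which include MPA + Guanine with its low member share (6.39%). With totals that leave out ribosomal protein genes, 10 members were. The share of all genes was not counted under these settings, so these counts have no background share beside them. *RPL36B* (*YPL249C-A*) had 46 UMIs or 212 CPM in Guanine and 22 UMIs or 70.7 CPM in DMSO, a log2 ratio of 1.59 (0.82 to 2.39). *RPL7B* (*YPL198W*), a copy that shares most of its sequence with *RPL7A*, had 56 UMIs in Guanine and 34 in DMSO, a log2 ratio of 1.24 (0.60 to 1.90). *RPL15A* (*YLR029C*), for a protein deep in the subunit body, had 1508 UMIs or 6957 CPM in Guanine and 1196 UMIs or 3843 CPM in DMSO, a log2 ratio of 0.86 (0.75 to 0.97), while *RPL15B* was at 0.02. *RPL21A* (0.79) and *RPL4B* (0.58), named after their values were seen, are the remaining 2 of the 5.

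Among the lowest members in Guanine were *RPL18B* and *RPL8A*. *RPL18B* (*YNL301C*) had 55 UMIs or 254 CPM in Guanine and 161 UMIs or 517 CPM in DMSO, a log2 ratio of −1.03 (−1.50 to −0.58). Its log2 ratio in MPA + Guanine was −1.27. *RPL8A* was at −0.24 (−0.59 to 0.11) in Guanine. All 3 comparisons share the DMSO library, so an error in it enters each of them.

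**Figure D2:**
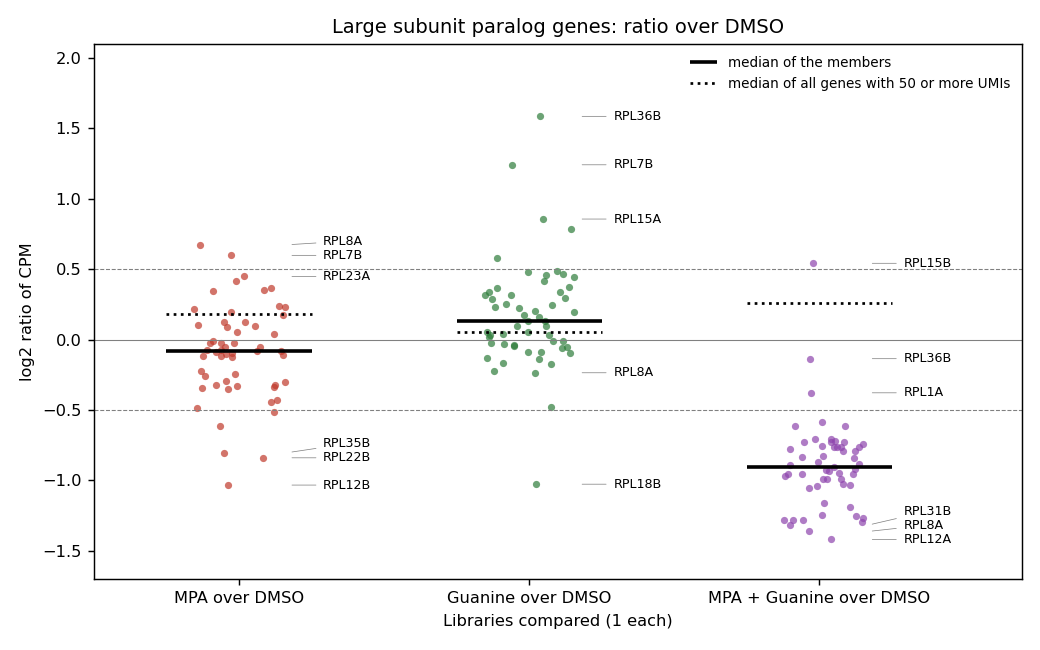
Each point is a member with at least 50 UMIs over the 4 libraries, with the comparison on the x axis and the log2 ratio of its CPM over DMSO on the y axis; solid bars give the members' median, dotted bars the median of all genes compared, and dashed lines mark 0.5 and −0.5. The members' medians are −0.08 for MPA, 0.13 for Guanine and −0.90 for MPA + Guanine, where 52 of 55 members lie at or below −0.5, and members described in the text are labelled.

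The members differed widely in level. Scaled to coding length and averaged over the 4 libraries, *RPL37A* was highest with 13585 CPM per kb, followed by *RPL24B* with 11851 and *RPL24A* with 9940. *RPL22A* and *RPL33A* were lowest with 19.8 and 32.0 CPM per kb, with counts listed at 0 entered as 0. The paper reports no bias of UMI counts toward transcript length, so levels per kb, here and below, favor short coding sequences. Unscaled, *RPL24B* averaged 5546 CPM and *RPL37A*, with 267 coding bases against 468, averaged 3627 CPM. By UMIs over all libraries the highest were *RPL24B* (4820), *RPL13B* (4027), *RPL24A* (3961), *RPL15A* (3666) and *RPL37A* (3222), which together held 21.0% of the 94000 member UMIs. *RPL24* encodes a protein that reaches across to the small subunit. *RPL24B* had 6888 CPM in MPA, 5660.4 in Guanine, 3624 in MPA + Guanine and 6012 in DMSO, and *RPL24A* had 6314, 4484, 2873 and 4936 CPM in the same libraries. *RPL37A* had 3921 CPM in MPA, 4263 in Guanine, 2344 in MPA + Guanine and 3981 in DMSO. *RPL13B* had 5837 CPM in MPA, 4844 in Guanine, 2995 in MPA + Guanine and 4945 in DMSO. The lowest after *RPL22A* and *RPL33A* were *RPL36B* with 86 UMIs, *RPL7B* with 107 and *RPL15B* with 226. For each of these 5 the other copy had far more counted UMIs.

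The copies contributed unequally in most pairs. Over the 4 libraries pooled, copy A held over 50% of the pair's UMIs in 14 of 29 pairs, against 16 of the 24 small subunit pairs. The interval of the pooled A share lay above 50% in 14 pairs and below it in 12. In the 3 others (*RPL2*, *RPL17* and *RPL27*, named after their values were seen) counting error does not settle which copy is higher. By library, copy A was over 50% in 13 pairs in MPA, 15 in Guanine, 14 in MPA + Guanine and 13 in DMSO. In 23 pairs A stayed on the same side of 50% in all 4 libraries, and 6 pairs crossed it. Coding lengths within a pair differ by at most 3 bases, and dividing by them moved no pooled share by more than 0.124 percentage points.

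Among the pairs in which copy A prevailed most were *RPL7*, *RPL15* and *RPL36*. *RPL7B* in MPA + Guanine and *RPL36B* in MPA are listed at 0 and were entered as 0. Any UMIs filtered out there would lower the pooled A shares of these pairs, which their intervals do not cover. *RPL7A* had 318 UMIs in MPA, 516 in Guanine, 391 in MPA + Guanine and 722 in DMSO, against 17, 56, 0 and 34 for *RPL7B*, and held 94.8% (93.7 to 95.7%) of the pair's UMIs. The *RPL7* copies share most of their sequence, so this share is uncertain beyond its interval. *RPL15A* held 94.2% and *RPL36A* 93.8%. *RPL36A* had 130 UMIs in MPA, 409 in Guanine, 261 in MPA + Guanine and 493 in DMSO, against 0, 46, 18 and 22 for *RPL36B*.

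By counted UMIs, copy B prevailed most in *RPL33*, *RPL22*, *RPL8* and *RPL13*. The counts of *RPL33A* and *RPL22A* are uncertain, since features named on the opposite strand lie beside both. Counts listed at 0 enter the pooled shares as 0. *RPL33B* had 57 UMIs in MPA, 198 in Guanine, 91 in MPA + Guanine and 207 in DMSO, while *RPL33A* had 9 UMIs from 8 Guanine cells and was listed at 0 in the other 3 libraries, a pooled A share of 1.60%. *RPL22B* had 19 UMIs in MPA, 82 in Guanine, 38 in MPA + Guanine and 103 in DMSO, while *RPL22A* had 9 UMIs from 8 DMSO cells and was listed at 0 elsewhere, a pooled A share of 3.59%. Each of these low members had at most 2 UMIs in a cell. *RPL8A* held 16.4% (15.0 to 17.8%) and *RPL13A* 22.0%. The *RPL22* proteins are also the least alike of all 29 pairs, while Rpl33 differs at 1 residue of 107.

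**Figure D3:**
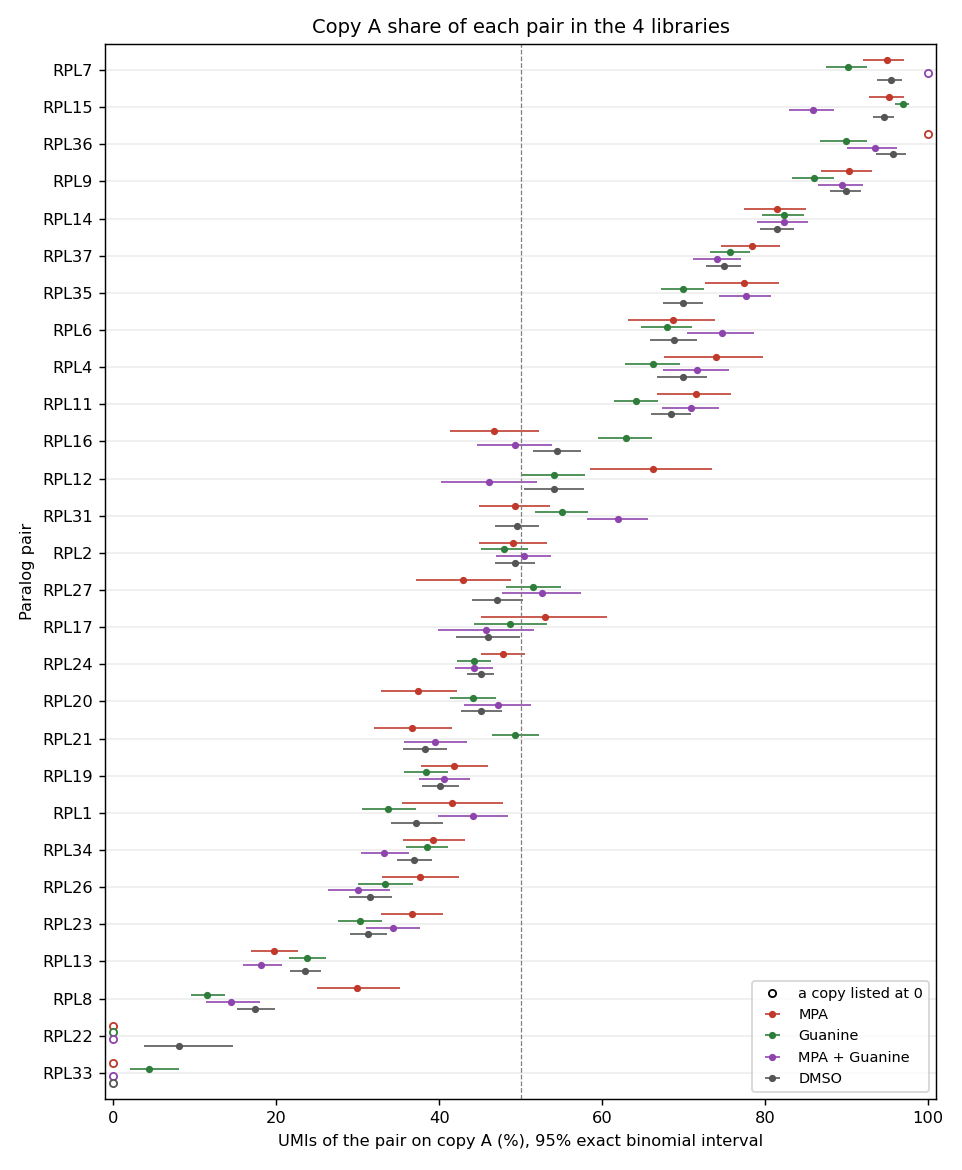
Each row is 1 of the 28 pairs drawn, ordered by its pooled share, and each filled point gives the percent of the pair's UMIs on copy A in 1 library with its 95% exact binomial interval; open points mark libraries in which a copy was listed at 0 and have no interval. As counted, shares run from 1.60% pooled for *RPL33*, whose copy A count is uncertain, to 94.8% for *RPL7*. The copies of *RPL7* share most of their sequence. The points of *RPL8*, *RPL12* and *RPL16* are the most spread among pairs with at least 100 UMIs in every library.

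Some members with few UMIs lie next to other listed features. The features *YPL142C* and *YLR062C*, whose names place them beside *RPL33A* and *RPL22A* on the opposite strand, are listed with 0 and 0 UMIs in MPA, 112 and 32 in Guanine, 36 and 26 in MPA + Guanine, and 78 and 40 in DMSO. *YPL197C*, next to *RPL7B* by the same reasoning, had 17 UMIs in DMSO only, *YHL034W-A*, next to *RPL8A*, had 12 in Guanine only, and *YDR417C*, next to *RPL12B*, had 2 in MPA + Guanine only. These were looked for after the low values were seen, the annotation used here holds none of them, and the sources do not state whether counting used strand. Where it did not, reads of a member and of such a feature cannot be told apart, and reads that fall on both may be left uncounted, so the levels of *RPL33A*, *RPL22A* and *RPL7B*, and to an unknown extent those of *RPL8A* and *RPL12B*, are uncertain.

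A shares moved between libraries by a median range of 7.61 percentage points over the 29 pairs, with 3 pairs standing out among those with at least 100 UMIs in each library. *RPL12A* held 66.3% in MPA, 54.0% in Guanine, 46.1% in MPA + Guanine and 54.1% in DMSO, a range of 20.2 points. *RPL8A* held 29.9% in MPA, 11.5% in Guanine, 14.4% in MPA + Guanine and 17.4% in DMSO, a range of 18.4 points. *RPL16A*, for a protein of the subunit's surface whose copies differ at 20 residues, held 46.7% in MPA, 62.9% in Guanine, 49.3% in MPA + Guanine and 54.4% in DMSO, a range of 16.1 points. At the other end, *RPL14A* held 81.4%, 82.4%, 82.3% and 81.5% and *RPL2A* 49.0%, 48.0%, 50.3% and 49.3% in the same order of libraries. These 2 pairs were picked after their values were seen, and their library values in MPA + Guanine average unlike subclusters. *RPL14A* held 91.2% (86.7 to 94.6%) in MG.2 and 76.7% (72.1 to 80.9%) in MG.1, and *RPL2A* 43.4% (37.7 to 49.3%) in MG.2 and 53.5% (49.2 to 57.9%) in MG.1.

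Against DMSO, the A to B ratio changed by 0.5 or more on the log2 scale in 4 of 26 pairs in MPA, 8 of 27 in Guanine and 5 of 26 in MPA + Guanine, where both copies had at least 10 UMIs in both libraries. The same size was reached by 31.8% of the small subunit pairs in MPA, 12.5% in Guanine and 21.7% in MPA + Guanine. In MPA all 4 moved toward copy A, among them *RPL8* by 1.01 (0.58 to 1.44), *RPL12* by 0.74 (0.21 to 1.28) and *RPL35* by 0.55 (0.15 to 0.97). In Guanine 4 moved toward A, with *RPL15* at 0.84 (0.27 to 1.41) and *RPL21* at 0.65 (0.42 to 0.89) the largest, and 4 toward B, with *RPL36* at −1.33 (−2.16 to −0.54), *RPL7* at −1.20 (−1.89 to −0.54) and *RPL8* at −0.70 (−1.08 to −0.32) the largest. In MPA + Guanine *RPL15* moved toward B by −1.53 (−2.03 to −1.03), and *RPL31* by 0.73 (0.45 to 1.01) and *RPL35* by 0.58 (0.26 to 0.90) toward A. *RPL35*, a near-identical pair, moved toward A in both MPA and MPA + Guanine, and both comparisons share the DMSO library. Changes in *RPL35* and *RPL7*, whose copies share most of their sequence, are uncertain beyond their intervals.

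Copy usage was also compared between subclusters of a library, which were found from the same counts. The A to B ratio differed by 0.5 or more on the log2 scale in 13 of 24 pairs between MG.2 and MG.1. It did so in 6 of 25 between DMSO.2 and DMSO.1 and in 4 of 27 between Guanine.2 and Guanine.1. The small subunit pairs were not counted between subclusters, so these counts have no background share beside them. Some copies had few UMIs, such as *RPL9B* with 12 in MG.2, and counting error alone can carry such pairs past 0.5. A difference between MG.2 and MG.1 was not seen in *RPL15* alone. The intervals of the *RPL14A* share, 86.7 to 94.6% in MG.2 and 72.1 to 80.9% in MG.1, do not overlap. *RPL15A* held 78.8% (74.3 to 82.8%) in MG.1, 96.2% (92.9 to 98.2%) in MG.2 and 95.5% (77.2 to 99.9%) in MG.3, against 95.1% in DMSO.1 and 92.6% in DMSO.2. MG.1 held 79 of the 89 *RPL15B* UMIs of the library, or 408 CPM, against 129 CPM in MG.2, while *RPL15A* had 1512 CPM in MG.1 and 3273 CPM in MG.2. For *RPL8*, the A share was 16.4% in MG.1 and 12.2% in MG.2, 11.0% in Guanine.1 and 11.9% in Guanine.2, against 17.7% in DMSO.1 and 16.4% in DMSO.2, and the intervals overlap within each condition. *RPL31A* held 68.1% (60.9 to 74.7%) in MG.2 and 59.6% (54.8 to 64.2%) in MG.1, against 49.9% in DMSO.1 and 47.8% in DMSO.2. It held 60.1% (55.5 to 64.5%) in Guanine.2 and 49.7% (44.9 to 54.4%) in Guanine.1.

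**Figure D4:**
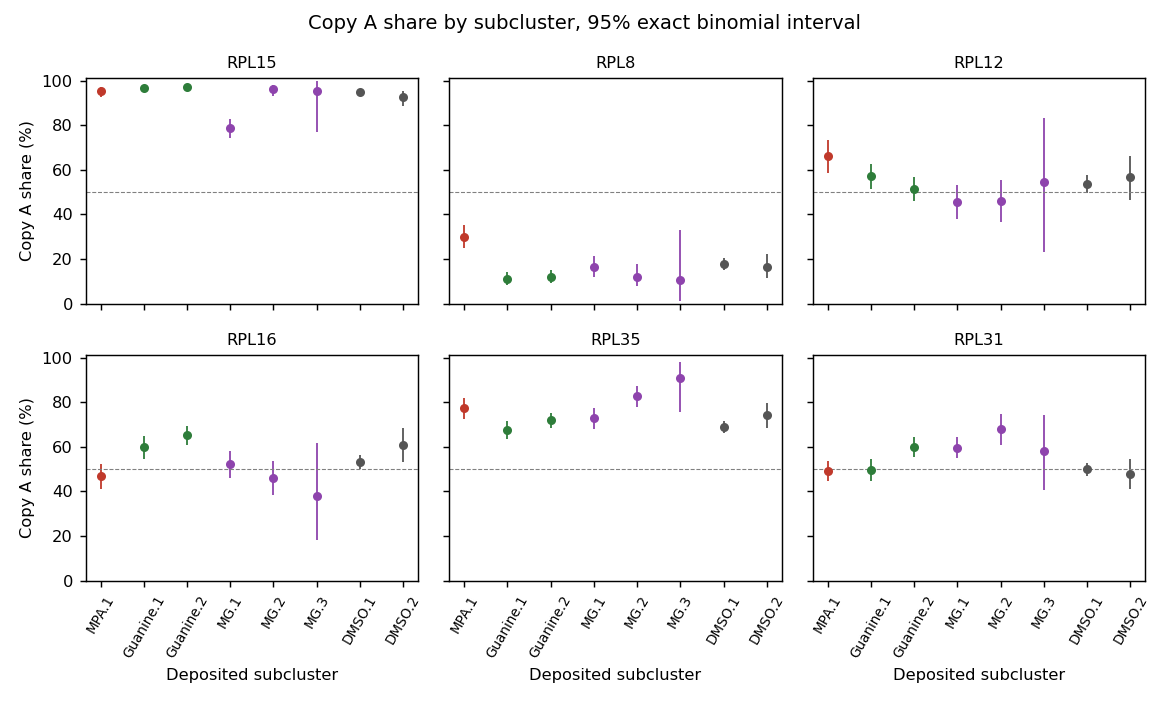
Each panel is 1 pair, with the deposited subcluster on the x axis and the percent of the pair's UMIs on copy A, with its 95% exact binomial interval, on the y axis; colors mark the condition. *RPL15* stands at 78.8% in MG.1 and between 92.6% and 97.1% in the other 7 subclusters, and *RPL8* at 29.9% in MPA.1 and between 10.5% and 17.7% elsewhere.

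The 5 pairs that share most of their sequence had levels inside the range of the other 24 pairs, with a lower median. Their pair levels were 4181 CPM per kb for *RPL1*, 10796 for *RPL35*, 2369 for *RPL4*, 7985 for *RPL11* and 3308 for *RPL7*. The median was 4181, against a median of 7153 and a range of 718 to 21790.5 CPM per kb over the other 24 pairs. The parts of coding length and of reads that match both copies in these levels per kb were not tested. The pooled A shares of the 5 were 38.0% for *RPL1*, 72.1% for *RPL35*, 69.4% for *RPL4*, 67.8% for *RPL11* and 94.8% for *RPL7*. That of *RPL7* was the highest of the 29 pairs. *RPL1A* had 105 UMIs in MPA, 272 in Guanine, 231 in MPA + Guanine and 334 in DMSO, against 148, 534, 293 and 564 for *RPL1B*. The copies of each of these pairs hold equal shares of unique windows, so dividing by unique windows moved no pooled A share of the 29 pairs by more than 0.135 points. In the 8 pairs with identical proteins the pooled A share was a median of 11.0 points away from 50%, against 19.5 points in the other 21.

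**Figure D5:**
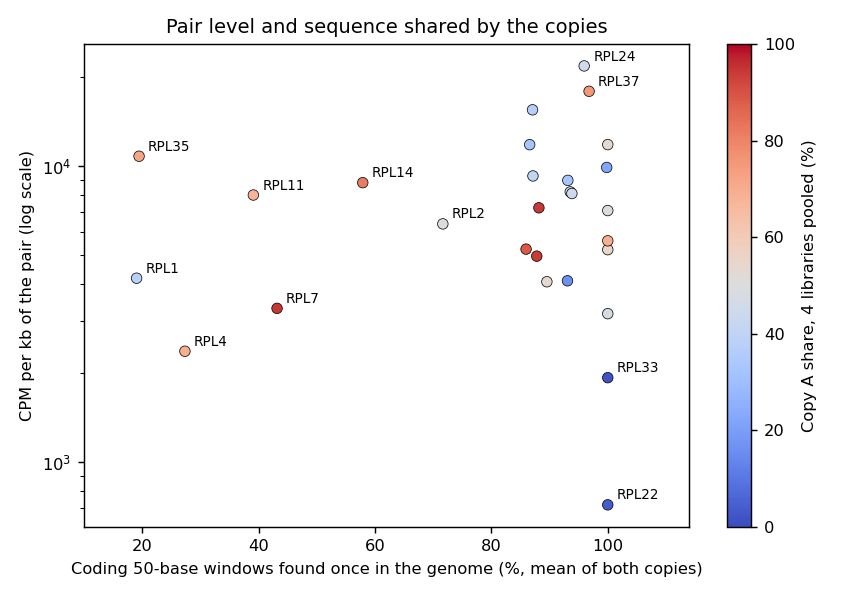
Each point is 1 of the 28 pairs drawn, with the percent of 50-base coding windows found once in the genome on the x axis, the summed CPM per kb of both copies on a log y axis, and color for the pooled share of copy A. The 5 pairs under 50% on the x axis have levels from 2369 to 10796 CPM per kb, inside the range of 718 to 21790.5 of the others. Levels per kb also depend on coding length. *RPL22* and *RPL33*, by counted UMIs the most uneven toward copy B, lie at the right edge with no shared windows, and their copy A counts are uncertain.

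The promoters of the pair most uneven by counted UMIs were read from the R64 reference, as the 300 bases that end 100 bases upstream of the start codon. They were searched for the Rap1-type motif ACCCNNACA on both strands, where N is any base. They are printed 5′ to 3′ on the gene's strand, with a match in capitals.
RPL33A, chrXVI:281722-282021, plus strand: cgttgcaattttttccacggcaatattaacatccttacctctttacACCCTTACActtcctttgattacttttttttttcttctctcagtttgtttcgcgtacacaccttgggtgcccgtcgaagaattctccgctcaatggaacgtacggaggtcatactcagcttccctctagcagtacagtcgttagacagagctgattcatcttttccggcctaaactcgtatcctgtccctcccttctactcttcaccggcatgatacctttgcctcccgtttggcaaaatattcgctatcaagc
RPL33B, chrXV:779506-779805, minus strand: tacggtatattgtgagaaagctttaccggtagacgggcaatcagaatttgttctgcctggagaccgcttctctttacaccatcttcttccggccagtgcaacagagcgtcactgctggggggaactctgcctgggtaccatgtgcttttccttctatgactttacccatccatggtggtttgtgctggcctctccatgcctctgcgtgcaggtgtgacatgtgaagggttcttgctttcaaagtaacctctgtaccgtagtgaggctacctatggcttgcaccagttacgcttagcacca
*RPL33A*, the copy with 9 UMIs, has 1 match and *RPL33B*, the copy with 553 UMIs, has none in this window. The count of *RPL33A* is uncertain, since *YPL142C* lies beside it by name, so the match is not read against the level. A match is only a run of letters, and its absence says nothing of the factor. Over the members, 23 of 58 windows (39.7%) held the motif, against 236 of 6007 (3.93%) for all nuclear protein-coding genes, with both copies matching in 6 pairs and neither in 12. Members with the motif had a median of 3485 CPM per kb and a median log2 ratio of −0.92 in MPA + Guanine over DMSO, and the 35 members without it had 3127 CPM per kb and −0.89.

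Introns, rare in yeast as a whole, were annotated in 42 of the 58 members, in both copies of 21 pairs and in neither copy of 8. Members with introns had a median of 3456 CPM per kb, from 19.8 to 13585, and the 16 without had 2403, from 391 to 11851. The longest coding sequences, 1089 bases in both *RPL4* copies, are among those without introns. The part of coding length in these levels was not tested. Median log2 ratios over DMSO were −0.08 and −0.16 in MPA, 0.08 and 0.35 in Guanine and −0.93 and −0.86 in MPA + Guanine, for members with and without introns in that order.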

How the data were processed

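UMI counts per gene and cell were deposited by the authors as 1 unnormalized matrix, with the SC3 subclusters of the cells. Per the Methods, reads were trimmed with Trimmomatic, aligned to R64 with STAR, counted with UMI-tools, and cells were filtered with scater. The handling of reads that match several genes and of strand is not given in the sources used here. The study's estimate of doublets was not used to remove cells. Differences between libraries cover all cells of a library. Here UMIs were summed per library or subcluster and scaled to CPM, and log2 ratios were taken without a pseudocount for genes with at least 50 UMIs. With 1 library per condition no test was made. Intervals (95%) are exact: binomial (Clopper-Pearson) for shares, Poisson for ratios, and conditional for differences of A to B ratios. Depth per library is given in the report. The members and lists were chosen with earlier results of these data known.

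Named are the 3 highest and 3 lowest members of each comparison, the 4 highest and 4 lowest pairs by A share, the 3 pairs with the widest range of A share, the 3 with the lowest protein identity, the 5 sharing most windows, and the 5 highest and 5 lowest members by UMIs. A result of 1 gene, and those that need it, are not reported here. Others are said to be chosen after their values were seen. Sequences and gene models are from RefSeq (R64). Alternatives were TMM scaling, totals without ribosomal protein genes, leaving out cells dominated by 1 gene, cells under 400 UMIs or the 5% deepest, another comparator, other UMI minimums, the mean over cells of each cell's share, and A shares per coding length, per unique window or without near-identical pairs. Intervals came from scipy 1.17.1, tables from pandas 2.3.3, alignments from biopython 1.88 (all in python 3.11.15) and TMM factors from edgeR 4.0.16 in R 4.3.3. The ratios and their intervals were tested on simulated counts with counting error only, so that test does not cover variation between cells or libraries.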

Additional observations from a re-analysis of the deposited data

How the results depend on the processing

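No paired analysis was possible because each condition is 1 library, and for the same reason no replicate could be left out. Of 126 values recomputed under an alternative, 23 moved, among them the members' median in MPA, which changed sign from −0.08 to 0.17. Many of the others could not change, since leaving out MG.3 removes no cell of the other conditions, the limit of 400 UMIs removes no MPA cell and the members under the UMI minimum have no ratio, so their number says nothing of stability. Of 144 values of named genes, 7 moved. Without cells dominated by 1 gene, the members' share was 6.55% in MPA + Guanine and 11.9% in DMSO, and 2 members were at or below −0.5 in Guanine. With TMM scaling the median of all genes was 0.01 for MPA and 0.08 for MPA + Guanine, and the members' medians were −0.25 and −1.08, with 1 member up and 12 down in MPA and 0 up in MPA + Guanine. The members' median less that of all genes was −0.26 in MPA, 0.08 in Guanine and −1.16 in MPA + Guanine under TMM. With totals that leave out ribosomal protein genes, the medians were −0.14 for MPA, 0.20 for Guanine with 10 members up, and −1.19 for MPA + Guanine with 0 up. With the deepest 5% of cells left out, 0 members were up in MPA + Guanine. Against the other 3 libraries pooled, the medians were 0.17 for MPA with 8 members up and 0.41 for Guanine with 27 up. Each of these pools includes MPA + Guanine, where the members' share was lowest. Counts of members up or down under the alternatives have no share of all genes beside them. Alternatives chosen after seeing the data were DMSO.1 as comparator, with medians of −0.17 for MPA, 0.057 for Guanine (0.074 over all genes) with 2 members down, and −1.01 for MPA + Guanine, and leaving out MG.3, with a median of −0.88 for MPA + Guanine. The causes were not tested. Depth limits the low copies: *RPL22A* and *RPL33A* rest on 9 UMIs each.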
